A study of Mus musculus with 32 samples.

Results

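Purinergic signalling genes were followed in the spinal cord of SOD1 G93A mice, a transgenic model of amyotrophic lateral sclerosis, and of wild-type (WT) mice. The 8 genes were listed by name for their role, with earlier results of these data known: the ATP-gated channels P2rx4 and P2rx7, the UDP receptor P2ry6, the ectonucleotidases Entpd1 and Nt5e, and the adenosine receptors Adora1, Adora2a and Adora3. They are 8 of the 42524 genes in the count table, and all 8 passed the filter on low counts in every comparison. The 32 mice fell into 8 groups of 4: WT untreated, WT given OKN-007, G93A untreated and G93A given OKN-007, each labelled 90 days and again 155 days. OKN-007 is a nitrone, a small molecule that traps free radicals, and was given in the drinking water. G93A mice carried human SOD1 with the G93A change, and WT mice were littermates on the same C57BL/6J background without the transgene. Each library came from 1 piece of spinal cord, whose segment the labels do not give, so all cell types of the cord were read together. In such whole-tissue RNA, fewer or more cells of a type and less or more RNA per cell cannot be told apart.

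ATP leaves stressed or damaged cells and acts on neighbouring cells as a danger signal. P2RX4 and P2RX7 are cation channels that ATP opens directly, and P2RX7 opening is a classic trigger of the NLRP3 inflammasome and of IL-1β release. P2RY6 is a G protein-coupled receptor for UDP and is known for starting phagocytosis by microglia. ENTPD1 (CD39) removes phosphates from ATP and ADP to give AMP, and NT5E (CD73) turns AMP into adenosine. Adenosine is then sensed by ADORA1, the main inhibitory adenosine receptor of neurons, by ADORA2A, best known from the striatum, and by ADORA3. In the cord, microglia are known to carry P2RX4, P2RX7, P2RY6 and ENTPD1.

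Libraries held 19701722 to 30138257 counts. Marker genes of neurons, oligodendrocytes and astrocytes were present in all 8 groups. Marker genes of microglia moved with genotype at 155 days: the summed level of 11 microglial identity genes was 344 to 445 CPM (counts scaled to the library total) in untreated WT mice and 1789 to 3443 CPM in untreated G93A mice. A score of 9 caudal Hox genes, which mark the position along the cord, also moved with genotype, from 3.37 to 4.39 on the log2 CPM scale in untreated WT mice to -0.12 to 3.30 in untreated G93A mice at that age. At 90 days the mean Hox score was 3.17 in untreated and 2.25 in treated WT mice, with overlapping ranges. In G93A mice of 90 days it was 3.20 untreated and 1.90 treated, again with overlap. Liver transcripts, summed over 5 genes, were highest in 2 G93A libraries at 155 days. They reached 183 CPM in untreated replicate 12 and 125 CPM in OKN-007 replicate 15. At 90 days they reached 72.5 CPM in WT OKN-007 replicate 6 and 39.5 CPM in untreated G93A replicate 11. G93A OKN-007 replicates 13 and 16 of that age had 28.7 and 29.4 CPM. Prx and Egr2, genes of Schwann cells, the myelinating cells of peripheral nerve, were high in 2 untreated libraries at 90 days, with a summed 252.7 CPM in WT replicate 3 and 45.1 CPM in G93A replicate 10, against at most 1.16 CPM in treated mice of that age. Astrocyte genes were higher (7 of 7 passed, median log2 fold change 0.94) and neuron genes lower (7 of 7, median -0.66), as were 5 of 6 motor neuron genes (median -0.65), in untreated G93A mice at 155 days. The part of these shifts in the results was not tested, and member counts without those libraries and with the Hox score in the fit are given below.

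Levels of the members can be compared with each other only per exon length. Adora1 led by far in untreated WT mice at 155 days, with 43.2 ± 1.39 CPM per kilobase (SD, n = 4). P2rx7 followed with 2.51 ± 0.258, P2rx4 with 2.32 ± 0.142 and Entpd1 with 1.72 ± 0.199 CPM per kilobase. The values of P2rx7 and P2rx4 lay within each other's spread. The lowest were Nt5e at 0.421 ± 0.0755, P2ry6 at 0.368 ± 0.0988, Adora2a at 0.283 ± 0.0821 and Adora3 at 0.105 ± 0.0175 CPM per kilobase, and the first 3 of these 4 were not separated by their spread. In untreated G93A mice of the same age P2ry6 stood at 2.87 ± 0.964 CPM per kilobase, next after Entpd1 at 4.08 ± 0.833, while Adora1 was at 44.1 ± 1.36.

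**Figure D1:**
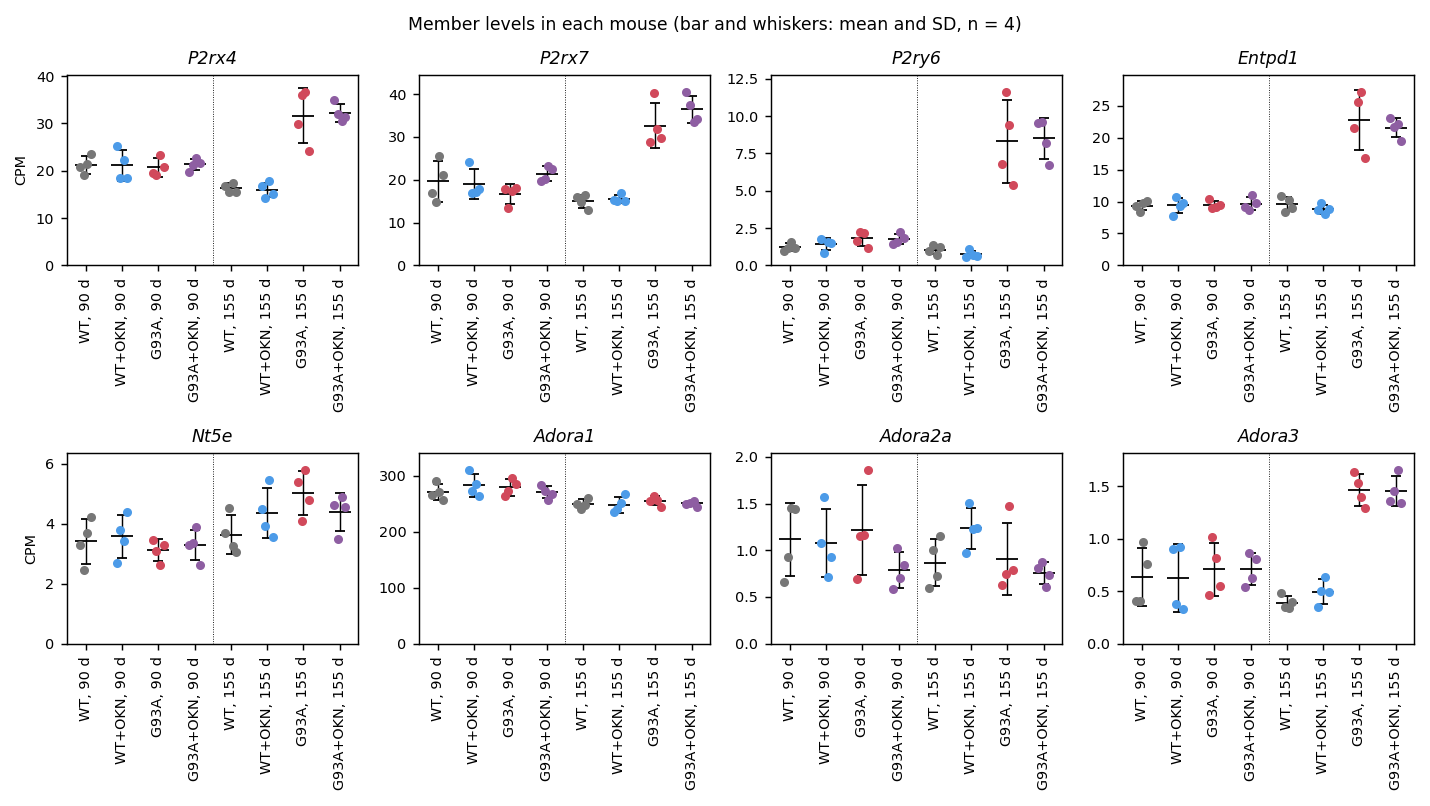
CPM of each of the 8 genes (vertical axis, from 0) in each of the 32 mice, by group along the horizontal axis; dots are mice, horizontal bars and whiskers are the mean and SD of 4 mice, and the dotted line parts 90 from 155 days. P2rx4, P2rx7, P2ry6, Entpd1 and Adora3 are higher in both G93A groups at 155 days, while Adora1 stays between 234.1 and 309.6 CPM in all mice.

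Promoter sequences are shown for the members whose start holds a match to either of 2 motifs that were looked up. The motifs were GAGGAAGT, a core bound by the myeloid factor PU.1, and TGANTCA, the AP-1 site, each searched on both strands in the 250 bases before and 30 bases after a RefSeq transcript start (build GRCm38.p6). Entries were found for 6 of the 8 members, 9 in all, but not for P2ry6 or Adora2a. GAGGAAGT was present in 2.82% of all 32851 promoters of this length and TGANTCA in 7.46%. Capitals mark the matches, all sequences run 5′ to 3′ along the gene, and P2rx7 has 2 starts.
P2rx7 first start, chr5:122643677-122643956, plus strand, TGANTCA: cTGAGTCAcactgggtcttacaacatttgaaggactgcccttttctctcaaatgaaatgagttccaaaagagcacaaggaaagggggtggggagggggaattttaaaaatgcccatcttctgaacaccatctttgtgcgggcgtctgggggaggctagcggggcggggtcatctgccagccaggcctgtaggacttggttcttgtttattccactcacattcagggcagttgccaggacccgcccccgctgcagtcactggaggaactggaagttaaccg
P2rx7 second start, chr5:122650133-122650412, plus strand, GAGGAAGT on the opposite strand: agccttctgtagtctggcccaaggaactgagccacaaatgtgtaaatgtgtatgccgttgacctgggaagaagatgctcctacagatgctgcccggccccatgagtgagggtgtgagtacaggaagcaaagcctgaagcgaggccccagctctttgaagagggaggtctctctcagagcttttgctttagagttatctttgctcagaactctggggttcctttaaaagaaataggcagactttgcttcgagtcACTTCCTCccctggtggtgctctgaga
Adora3, chr3:105904171-105904450, plus strand, TGANTCA and GAGGAAGT on the opposite strand: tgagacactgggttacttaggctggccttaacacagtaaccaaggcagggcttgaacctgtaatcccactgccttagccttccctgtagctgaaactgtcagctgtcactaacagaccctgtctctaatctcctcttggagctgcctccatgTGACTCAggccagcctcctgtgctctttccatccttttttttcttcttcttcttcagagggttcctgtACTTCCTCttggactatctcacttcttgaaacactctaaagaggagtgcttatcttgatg
Adora1, chr1:134235428-134235707, minus strand, TGANTCA: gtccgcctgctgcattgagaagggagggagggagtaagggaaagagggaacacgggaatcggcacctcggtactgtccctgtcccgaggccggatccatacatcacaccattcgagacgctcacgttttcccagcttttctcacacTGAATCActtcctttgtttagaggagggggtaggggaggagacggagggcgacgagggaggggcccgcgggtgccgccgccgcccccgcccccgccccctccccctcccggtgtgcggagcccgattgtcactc
Counted from the transcript start, the match to GAGGAAGT began at 4 in the second P2rx7 promoter and at -30 in that of Adora3. TGANTCA began at -249 in the first P2rx7 promoter, at -98 in that of Adora3 and at -104 in that of Adora1. No match to these letters was found in this window of P2rx4, Entpd1 (2 starts), Nt5e or the second Adora1 start. A match describes letters only and was not tied to binding or to how the members moved.

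In untreated mice at 155 days, 6 of the 8 members were higher in G93A than in WT cord and none was lower (edgeR quasi-likelihood test, Benjamini-Hochberg adjusted p under 0.05). P2ry6, Adora3, Entpd1 and P2rx7 showed the widest differences, P2rx4 and Nt5e smaller ones, and Adora1 and Adora2a did not pass. Across all 18675 genes tested, 39.5% passed, 21.3% higher and 18.2% lower. The median log2 fold change of the 8 members was 1.05, against 0.000155 over all genes tested. In 5 of the 8 members all G93A mice lay above all WT mice, which held for 17.4% of all genes, and none lay below, which held for 15.4%. All 11 microglial identity genes were higher as well, with a median log2 fold change of 2.88, as were 10 of 10 disease-associated microglia genes (median 3.58) and 9 of 10 homeostatic microglia genes (median 1.18). Of 5 border macrophage genes, 1 of the 4 tested was higher, and their summed level was 3.47 to 4.36 CPM in WT and 4.13 to 7.18 CPM in G93A mice. Of 5 T and NK cell genes, both of the 2 tested were higher (median 2.48), and the list summed to 0.217 to 0.420 CPM in WT and 0.977 to 1.52 CPM in G93A mice. In untreated WT mice 4 of these 5 genes had 3 or fewer counts in every mouse, and likewise in treated WT mice. The genes tested thus passed the filter on low counts through G93A mice, so that both were higher is no support for a rise.

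Among the ATP-gated channels, P2rx4 (chr5:122707544-122729738, plus strand, GENCODE M21 on GRCm38) was counted at 16.8, 15.6, 17.5 and 15.4 CPM in the 4 untreated WT mice at 155 days and at 29.8, 35.9, 36.7 and 24.2 CPM in the 4 untreated G93A mice. All G93A mice lay above all WT mice. The log2 fold change was 0.97 (SE 0.11, 95% interval 0.73 to 1.20, edgeR adjusted p = 1.43e-06), a 1.95-fold difference. P2rx7, its neighbour on the same strand (chr5:122643911-122691432), stood at 15.9, 14.9, 16.3 and 12.9 CPM in WT and at 28.8, 40.2, 31.9 and 29.7 CPM in G93A mice. Again the groups did not overlap, and the log2 fold change was 1.14 (SE 0.11, 0.91 to 1.36, edgeR adjusted p = 1.01e-07), 2.20-fold. The lowest G93A mouse for P2rx4 was replicate 12, one of the mice with high liver transcripts. It was also the lowest of these mice for P2ry6, Entpd1, Adora3 and Adora1, but not for P2rx7, Nt5e or Adora2a. Its mean log2 CPM of the microglial identity genes, 6.55, was the lowest of the group too, where the highest was 7.37. The reason was not tested.

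P2ry6 (chr7:100937630-100974649, minus strand) had the largest change of the 8. Its level was 0.931, 1.34, 0.726 and 1.25 CPM in untreated WT mice (19 to 38 counts) and 6.80, 11.6, 9.43 and 5.35 CPM in untreated G93A mice (162 to 281 counts). The lowest G93A mouse was thus well above the highest WT mouse, and the spread among G93A mice was wide. The log2 fold change was 2.97 (SE 0.26, 2.43 to 3.51, edgeR adjusted p = 3.31e-08), 7.85-fold. Its change was near the median of the microglial identity genes, 2.88, whereas P2rx4, P2rx7 and Entpd1 were nearer the homeostatic median of 1.18.

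Both ectonucleotidases were higher, by different amounts. Entpd1 (chr19:40612366-40741602, plus strand), which starts the breakdown of ATP, was at 10.8, 8.42, 10.2 and 8.92 CPM in WT and at 21.5, 25.6, 27.2 and 16.8 CPM in G93A mice, with no overlap. Its log2 fold change was 1.26 (SE 0.13, 0.99 to 1.53, edgeR adjusted p = 3.36e-07), 2.39-fold. Nt5e (chr9:88327197-88372092, plus strand), which makes adenosine, was at 3.69, 4.51, 3.25 and 3.05 CPM in WT and at 5.39, 4.09, 5.78 and 4.79 CPM in G93A mice, and here the groups overlapped. The log2 fold change of Nt5e was 0.49 (SE 0.17, 0.13 to 0.84, edgeR adjusted p = 0.0278), 1.40-fold. The Nt5e call did not hold when 1 mouse was left out in 4 of 8 cases, WT replicates 3 and 4 and G93A replicates 9 and 11 (adjusted p 0.0557 to 0.0827), nor with the caudal Hox score in the fit (0.0932) or in a fit of these 2 groups alone (0.0529).

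Of the 3 adenosine receptors, 1 passed, where 39.5% of all genes tested passed. Adora3 (chr3:105870858-105908926, plus strand) was at 0.484, 0.347, 0.344 and 0.393 CPM in WT and at 1.64, 1.53, 1.39 and 1.29 CPM in G93A mice, from 8 to 13 and 34 to 42 counts, with no overlap. The log2 fold change of Adora3 was 1.90 (SE 0.23, 1.41 to 2.38, edgeR adjusted p = 2.93e-06), 3.72-fold. Adora3 shares 779 exonic bases on the same strand with Tmigd3, so reads there could be assigned to either gene or left out of both. Tmigd3 itself had 0 to 7 counts in any untreated mouse at 155 days.

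Adora1 (chr1:134199223-134235431, minus strand) was at 249.9, 240.9, 248.3 and 260.4 CPM in untreated WT and at 254.9, 263.4, 257.0 and 244.4 CPM in untreated G93A mice at 155 days. The groups overlapped, and the log2 fold change was 0.043 (SE 0.059, -0.080 to 0.17, edgeR adjusted p = 0.593), the narrowest interval of the 8 members, beside neuron genes whose median was -0.66. Adora1 overlaps 1162 exonic bases of Mybph on the opposite strand; Mybph had 9 to 35 counts in any mouse at 155 days. Adora2a (chr10:75316877-75334784, plus strand) was low, at 0.596, 0.998, 0.726 and 1.15 CPM in WT and at 0.625, 0.744, 1.48 and 0.793 CPM in G93A mice. With 16 to 36 counts a mouse its log2 fold change of 0.076 (SE 0.29, -0.53 to 0.68, edgeR adjusted p = 0.859) leaves room for a change in either direction.

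**Figure D2:**
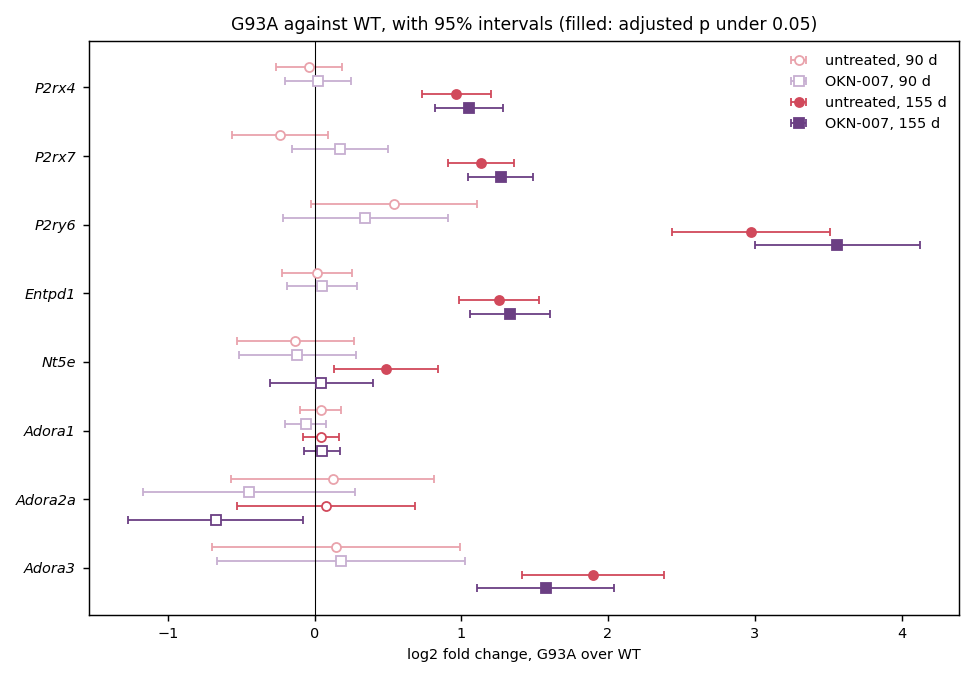
Log2 fold change of G93A over WT (horizontal axis) for the 8 genes, with 95% intervals, in untreated mice (circles) and in OKN-007 mice (squares), pale at 90 and dark at 155 days; filled symbols passed an adjusted p of 0.05 in edgeR. At 155 days P2ry6 lies farthest from 0, at 2.97 and 3.56, and at 90 days no symbol is filled.

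Among mice given OKN-007 at 155 days, 5 of the 8 members were higher in G93A than in WT cord and none was lower. In that comparison 41.5% of the 18675 genes passed, 23.3% higher and 18.2% lower, and the members' median log2 fold change was 1.16 against 0.018 over all genes. P2ry6 was at 0.543, 1.08, 0.672 and 0.636 CPM in WT and at 9.52, 9.62, 8.17 and 6.72 CPM in G93A mice, a log2 fold change of 3.56 (SE 0.27, edgeR adjusted p = 4.33e-09). P2rx4 differed by 1.05 (SE 0.11), P2rx7 by 1.27 (SE 0.11), Entpd1 by 1.33 (SE 0.13) and Adora3 by 1.58 (SE 0.22) on the log2 scale, with no overlap between groups for any of them. All G93A mice lay above all WT mice for 22.6% of all genes and below them for 21.9%.

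Nt5e and Adora2a differed from the untreated picture in their values, although the difference itself did not pass. Nt5e was at 4.50, 3.92, 5.45 and 3.57 CPM in treated WT and at 4.61, 3.48, 4.89 and 4.56 CPM in treated G93A mice, a log2 fold change of 0.047 (SE 0.17, -0.30 to 0.40, edgeR adjusted p = 0.850). Adora2a was at 0.970, 1.51, 1.23 and 1.24 CPM in treated WT and at 0.813, 0.871, 0.607 and 0.733 CPM in treated G93A mice. All treated G93A mice were below all treated WT mice for Adora2a, with a log2 fold change of -0.67 (SE 0.28, -1.27 to -0.08) that missed the threshold (edgeR adjusted p = 0.0646). It passed in a fit of these 2 groups alone (adjusted p = 0.0260) and with a filter of at least 10 counts in every mouse (0.0413). The genotype by treatment interaction at 155 days was -0.44 (SE 0.24) for Nt5e and -0.75 (SE 0.41) for Adora2a on the log2 scale, and 0 of 8 members passed it. None had an unadjusted p under 0.05, and over all genes 0% passed in edgeR, with 437 genes under an unadjusted p of 0.05 and 3 genes called by DESeq2.

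At 90 days no member passed in any genotype comparison. In untreated mice 0 of 8 passed, 0 had an unadjusted p under 0.05, and 0% of 18899 genes passed in edgeR (1126 under an unadjusted p of 0.05, and 11 called by DESeq2, none a member). The members' log2 fold changes ran from -0.24 (P2rx7) to 0.54 (P2ry6). In OKN-007 mice 0 of 8 passed, 0 had an unadjusted p under 0.05, and the values ran from -0.45 (Adora2a) to 0.35 (P2ry6); 0% of all genes passed there too (747 at unadjusted p, 1 by DESeq2). With the genotypes compared over both treatments, 0.0265% of genes passed, 5 in number, none of them a member, and DESeq2 called 58, again without a member. P2ry6 was nearest, at 0.44 (SE 0.19, 95% interval 0.045 to 0.84, edgeR adjusted p = 0.672), the 1 member with an unadjusted p under 0.05. Its levels were 0.994 to 1.60 CPM in untreated WT, 1.17 to 2.22 in untreated G93A, 0.823 to 1.75 in treated WT and 1.43 to 2.25 CPM in treated G93A mice, with overlap throughout. The microglial identity genes had a median log2 fold change of 0.45 in this comparison and 10 of 11 had an unadjusted p under 0.05, but 0 passed after adjustment. The interaction at 90 days was likewise passed by 0 members and by 0% of genes (0 members and 531 genes at unadjusted p, 0 by DESeq2).

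Whether the genotype difference itself changed with age was tested on all 32 mice. The untreated G93A difference was larger at 155 than at 90 days for 5 of 8 members, P2rx4, P2rx7, P2ry6, Entpd1 and Adora3, and smaller for none, where 21.2% of 19829 genes passed, 12.9% toward higher and 8.34% toward lower. The change in the difference was 2.43 (SE 0.37, edgeR adjusted p = 1.38e-05) for P2ry6, 1.74 (SE 0.45, 0.00584) for Adora3, 1.36 (SE 0.19, 4.42e-06) for P2rx7, 1.23 (SE 0.17, 2.79e-06) for Entpd1 and 0.99 (SE 0.16, 1.84e-05) for P2rx4, all on the log2 scale. Nt5e had 0.60 (SE 0.25) and did not pass (edgeR adjusted p = 0.0872). Under OKN-007 the same 5 members passed, from 0.999 for P2rx4 to 3.18 for P2ry6, where 23.0% of genes passed, 2581 of them toward higher and 9.97% of all toward lower. Adora3 was the least firm of them, with 1.36 (SE 0.45, edgeR adjusted p = 0.0252), and with the replicate block it did not pass (0.0560).

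P2rx4 averaged 21.2 ± 1.81 CPM in untreated WT mice at 90 days and 16.3 ± 0.997 CPM at 155 days (SD, n = 4), against 20.7 ± 1.92 and 31.6 ± 5.86 CPM in untreated G93A mice. P2rx7 averaged 19.7 ± 4.81 and 15.004 ± 1.54 CPM in WT and 16.7 ± 2.24 and 32.7 ± 5.18 CPM in G93A mice. Entpd1 averaged 9.36 ± 0.753 and 9.59 ± 1.11 CPM in untreated WT mice at 90 and 155 days. Ages were not compared within a genotype, and whether the libraries of the 2 ages were made together is not given in the sources used here.

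OKN-007 changed no member at either age by the edgeR test. In G93A mice 0 of 8 passed at 90 days and 0 of 8 at 155 days, and in WT mice 0 of 8 at each age; 0% of all genes passed in any of the 4 comparisons. At unadjusted p under 0.05 there were 1050 and 755 genes in G93A and 769 and 549 genes in WT mice at 90 and 155 days, and DESeq2 called 0 members and 0, 0, 0 and 3 genes, in the same order. For Adora1 the log2 change in G93A mice at 155 days was -0.016 (95% interval -0.14 to 0.11), for P2rx4 0.039 (-0.19 to 0.27), for P2rx7 0.17 (-0.044 to 0.39) and for Entpd1 -0.063 (-0.32 to 0.20). For P2ry6 it was 0.053 (-0.40 to 0.50), for Nt5e -0.18 (-0.53 to 0.17), for Adora3 0.00038 (-0.41 to 0.41) and for Adora2a -0.25 (-0.86 to 0.36), so the low genes leave room for larger changes.

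The member with the smallest p under OKN-007 was P2rx7 in G93A mice at 90 days, the 1 member with an unadjusted p under 0.05. P2rx7 was at 17.9, 13.4, 17.3 and 18.1 CPM in untreated and at 19.7, 20.1, 23.3 and 22.4 CPM in treated G93A mice. All treated mice lay above all untreated ones, which was so for 1.43% of all genes. That share is about what a random order of 4 against 4 mice gives. The log2 change was 0.36 (SE 0.16, 95% interval 0.033 to 0.69) and did not pass (edgeR adjusted p = 0.837). Untreated replicate 10 was low and was the G93A library with high Schwann cell genes, and without it the change was 0.27. Prx had a log2 change of -4.39 (SE 1.999) in this comparison and -6.32 (SE 1.87) in WT mice and Egr2 of -1.51 (SE 1.103) and -4.17 (SE 1.28), with neither past the test, and their part in the P2rx7 values was not tested. In WT mice of that age P2rx7 was at 17.0, 14.8, 25.7 and 21.2 CPM untreated, highest in replicate 3, the WT library with high Schwann cell genes, and 24.2, 16.8, 17.1 and 17.9 CPM treated. The OKN-007 effect in G93A mice did not differ between the ages for any member, with 0 of 8 past the test and 0 at unadjusted p, and 0% of genes (466 at unadjusted p, 0 by DESeq2).

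**Figure D3:**
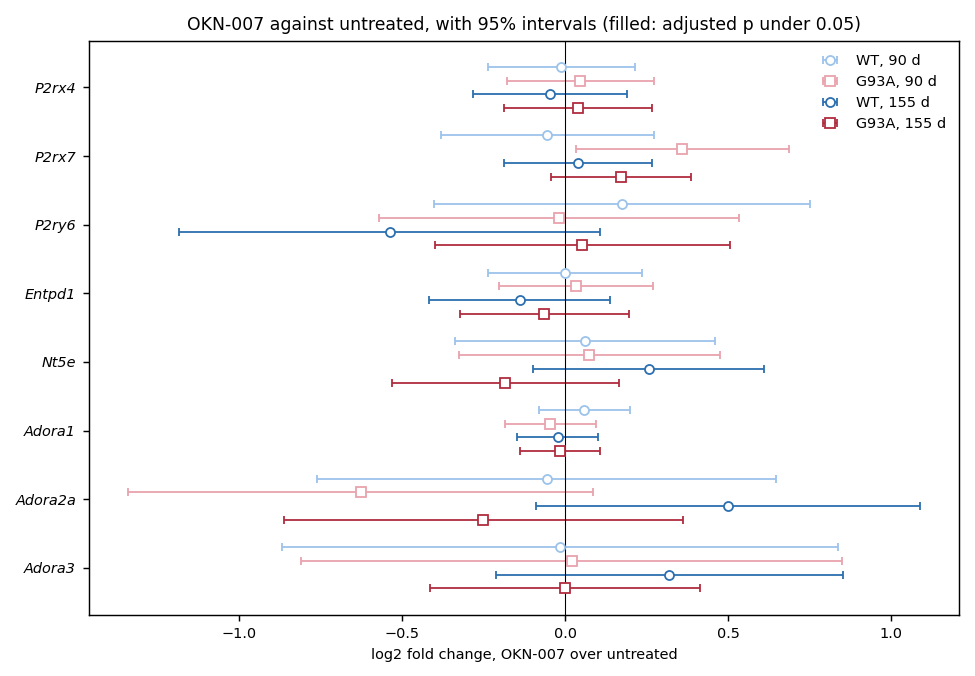
Log2 fold change of OKN-007 over untreated (horizontal axis) for the 8 genes with 95% intervals, in WT (circles) and G93A mice (squares), pale at 90 and dark at 155 days; a filled symbol would mark an adjusted p under 0.05 in edgeR. No symbol is filled, and of the G93A values only that of P2rx7 at 90 days, 0.36, has an interval clear of 0.

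Since microglial genes rose so widely, each member was also set against the mean log2 CPM of the 11 identity genes in the same mouse at 155 days (exact two-sided permutation test over 4 against 4 mice, Benjamini-Hochberg adjusted over 16 tests). For P2ry6 no difference was detected against the identity genes: in untreated mice it was -3.98 log2 units from the score in WT and -4.01 in G93A, a difference of -0.031 (exact permutation p = 0.943), and in treated mice the difference was 0.33 (exact permutation p = 0.200), which became 0.52 and passed without WT replicate 6 (exact permutation, adjusted p = 0.0305). Relative to the score, P2rx4 differed between G93A and WT by -1.95, P2rx7 by -1.77, Entpd1 by -1.66 and Adora3 by -1.16 in untreated mice, so that each changed less than this score. In treated mice the same values were -2.09, -1.88, -1.81 and -1.67. These values restate the members' own changes, given above, beside the rise of the score in the same mice, and add no separate support. Nt5e, Adora1 and Adora2a, with no or small changes of their own, lay -2.42, -2.86 and -2.85 below in untreated mice, which follows from the rise of the score. Each of these 7 members did so in both treatments, with exact permutation p = 0.0286 (adjusted p = 0.0327), the smallest value that 4 against 4 mice can give. The adjustment over 16 tests counts those of Nt5e, Adora1 and Adora2a, whose result the rise of the score settled. The adjusted p of P2ry6 against the homeostatic genes, given next, depends on their being counted. The reference list matters here: against 10 homeostatic genes P2ry6 rose by 1.497 in untreated mice (adjusted p = 0.0416), and by 1.95 in treated mice, P2rx7 and Entpd1 did not pass in untreated mice, at -0.25 and -0.13, and Adora3 turned to 0.36 and did not pass, while against 10 disease-associated genes P2ry6 differed by -1.41 in untreated and by -1.102 in treated mice (adjusted p = 0.0286 each).

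**Figure D4:**
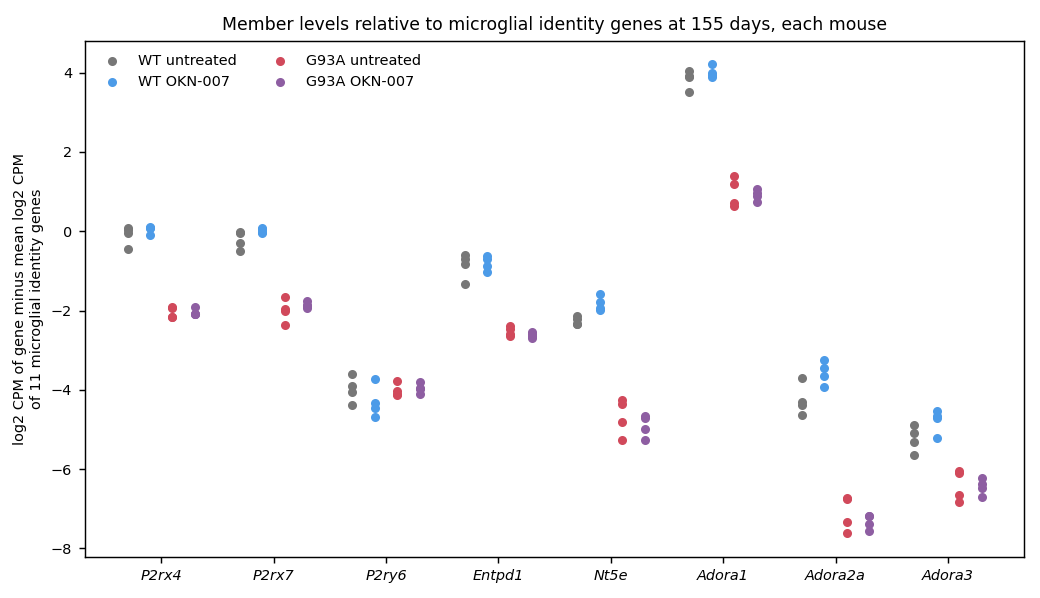
Log2 CPM of each gene minus the mean log2 CPM of 11 microglial identity genes in the same mouse (vertical axis) at 155 days, 4 mice per group; grey and blue are WT untreated and OKN-007, red and purple are G93A untreated and OKN-007. For P2ry6 the groups lie together near -4, and for the 7 other genes both G93A groups lie below both WT groups.

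The wider purinergic system, a list of 51 further genes by role, moved in both directions in untreated mice at 155 days. Of the 43 tested, 19 were higher and 12 lower in G93A cord and 12 did not pass, with a median log2 fold change of 0.23, where 21.3% of all genes tested were higher and 18.2% lower. Under OKN-007 19 of 43 were higher and 11 lower, with a median of 0.20, where 23.3% of all genes were higher and 18.2% lower. At 90 days 0 of the 41 tested passed in untreated mice, and 1 had an unadjusted p under 0.05. With the members set among them, the genes of each role are given next as log2 fold changes in untreated mice at 155 days, and the shares of all genes, 21.3% higher and 18.2% lower, stand behind each count by role.

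Of the 3 other ATP-gated channels tested, 2 were lower and 0 higher: P2rx5 was at -0.56 (SE 0.10, edgeR adjusted p = 0.000299) and P2rx6 at -0.54 (SE 0.13), while P2rx3, a channel of sensory neurons, at -0.61 did not pass. Of 6 tested nucleotide receptors 4 were higher, P2ry2 by 1.52, P2ry13 by 1.39, Gpr17 by 1.002 and P2ry12 by 0.39. P2ry12, the ADP receptor that marks resting microglia, and P2ry13 are also on the homeostatic list. P2ry1, another ADP receptor, fell by 0.28. The fourth adenosine receptor, Adora2b, rose by 0.73 (SE 0.17).

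Among the other genes listed as ectonucleotidases, more were lower than higher. The list was made by name and family and was not limited to enzymes that act outside the cell. Of 11 tested, Entpd2 alone was higher, by 1.01 (SE 0.14), close to Entpd1. Entpd3 fell by 0.69, Enpp1 by 0.62, Enpp2 (autotaxin, which makes lysophosphatidic acid) by 0.45, Entpd7 by 0.34 and Entpd6 by 0.22, and 5 did not pass, among them Alpl at -0.072 (SE 0.18). Among enzymes that convert nucleosides or nucleotides inside the cell, Ampd3 rose by 0.995, Pnp by 0.94 and Adk, adenosine kinase, by 0.32, while Ampd2 fell by 0.38 and Nt5c2 by 0.22. Ada, adenosine deaminase, at 0.55 (SE 0.56) did not pass.

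Genes for nucleoside transport and ATP release were split as well. Slc28a2 rose by 2.06 and Slc29a3 by 0.66, Slc29a4 fell by 0.67, and the equilibrative transporters Slc29a1 at 0.21 and Slc29a2 at -0.096 did not pass. Slc17a9, the vesicular nucleotide transporter, rose by 1.97, Calhm2 by 1.31 and Lrrc8a by 0.59, whereas Panx2 fell by 0.61 and Panx1, a pore often paired with P2RX7, did not pass at -0.13 (SE 0.09). All 5 inflammasome genes downstream of P2RX7 were higher: Il1b by 3.05 (SE 0.49), Pycard by 2.80 (SE 0.22), Nlrp3 by 2.23 (SE 0.22), Gsdmd by 1.78 (SE 0.14) and Casp1 by 1.65 (SE 0.17), each with a larger value than P2rx7 at 1.14. Their median was 2.23, between the homeostatic and the disease-associated microglia lists.

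**Figure D5:**
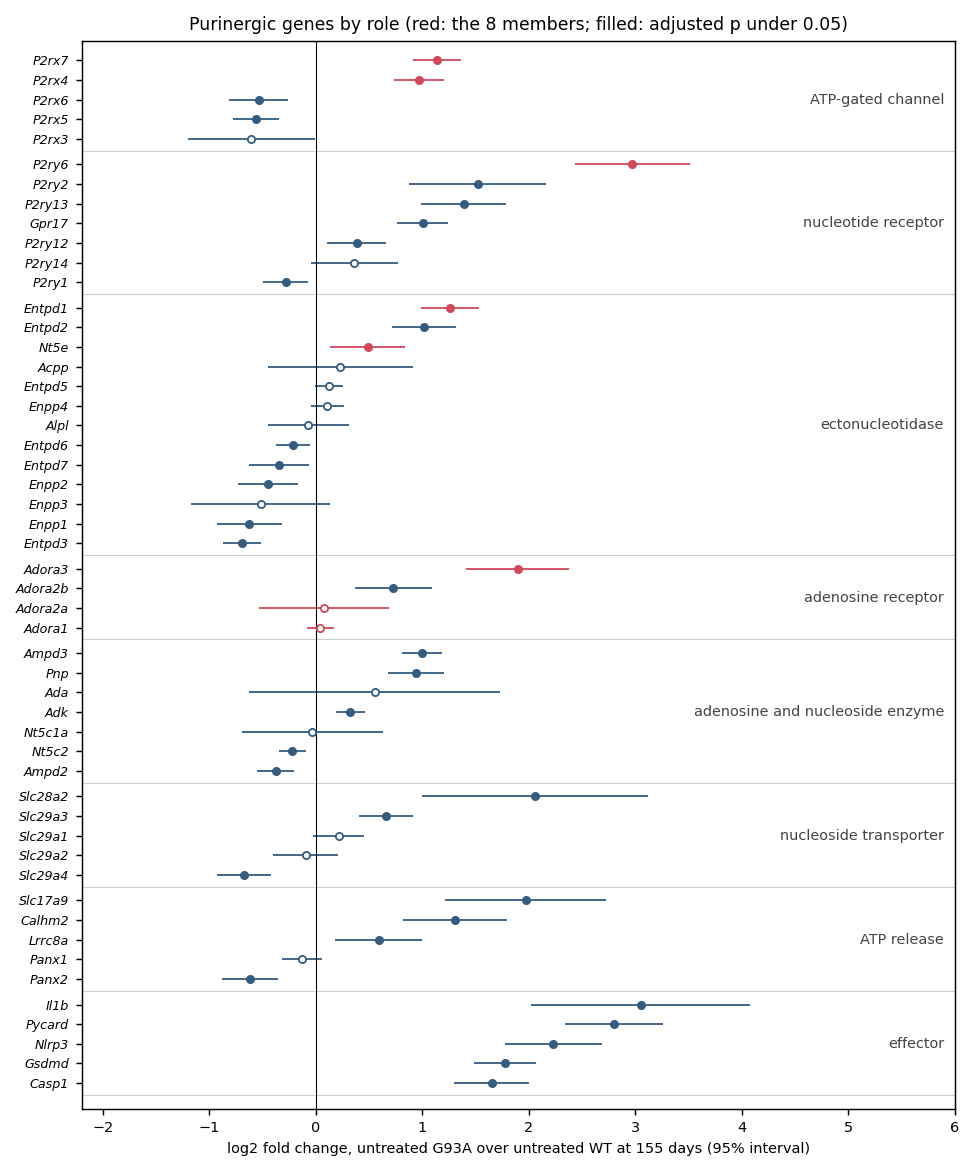
Log2 fold change of untreated G93A over untreated WT mice at 155 days with 95% intervals (horizontal axis) for the 8 members (red) and the 43 tested genes of the wider list (blue), grouped by role; filled symbols passed an adjusted p of 0.05 in edgeR. The inflammasome genes, labelled effector, lie between 1.65 and 3.05, and the ATP-gated channels part into P2rx4 and P2rx7 above 0 and P2rx5 and P2rx6 below.

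Across all 32 mice P2rx4, P2rx7, P2ry6, Entpd1 and Adora3 were positively correlated with each other. The correlations below are descriptions over 32 mice on the log2 CPM scale, and the mice share group differences, so values after removing the group means are given too (within groups), where the 10 pairs of these 5 genes ran from -0.13 (Entpd1 and Adora3, 0.76 over all mice) to 0.63. P2rx4 and P2rx7 had Pearson's r = 0.92 (0.63 within groups). P2ry6 and Entpd1 had 0.91, but 0.19 within groups. Nt5e and Adora1 were negatively correlated, with r = -0.68 and with -0.64 within groups.

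Among the other 19828 genes, the patterns most like each member differed. P2ry6 was most like Laptm5, Pld4 and Slc11a1 (r = 0.98 each), of which Laptm5 is on the identity list. P2rx7 was most like Inppl1, Cx3cr1 and Cchcr1 (0.96, 0.95 and 0.95), of which Cx3cr1 is on the homeostatic list. P2rx4 was most like Fam129b, Slco2b1 and Ssc5d (0.96 each) and Entpd1 like Man2b1, Myof and Igf1 (0.97 each). Adora3 was most like Traf3ip3, Olfr111 and Gmip (0.90, 0.89 and 0.89). Adora1 was most like Gpsm2 and Zfp276 (0.85 and 0.84), with 0.77 and 0.71 within groups. Nt5e was most like Cd248, Raver2 and Arid3a (0.71, 0.70 and 0.70) and Adora2a like 2610035F20Rik, Spata48 and Syndig1l (0.61, 0.60 and 0.57), the lowest values of the 8.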

How the data were processed

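RNA-seq libraries (TruSeq Stranded mRNA) from the spinal cord of 32 mice were read from 1 table of raw counts per Ensembl gene, which the authors deposited with no normalization. The submitters' notes name FastQC, STAR, featureCounts and edgeR with the builds GRCm39 and hg38, while the methods name STAR, HTSeq and GRCm38, so the counter and build behind the counts are not settled. Whether strand was used in counting is not given in the sources used here. Symbols and coordinates come from GENCODE M21 (GRCm38), which paired 41203 of 42524 IDs. The labels give 90 and 155 days, and the methods give 95 days for the earlier age.

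Counts were tested with edgeR 4.0.16 in R 4.3.3: filterByExpr, TMM, the quasi-likelihood F-test on the 16 mice of an age (4 groups of 4), two-sided, with Benjamini-Hochberg adjustment over all genes tested and a threshold of 0.05. Differences between ages used all 32 mice with no block, because same-numbered mice of the 2 ages are different animals (deviations from group means correlated at -0.21 to 0.13 over 16 pairs, 2 of them over 0.1). Log2 CPM used TMM factors and a prior count of 2. Relative levels were tested by exact permutation. DESeq2 1.42.0 was an alternative. The fit was tested on simulated data. P-values measure the spread between these mice. Totals ran from 19701722 to 30138257 counts, and the lowest member had 7 counts in 1 mouse, so low members carry the widest intervals. No 2 libraries of the same group agreed within counting noise.

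The members, lists and tests were chosen with earlier results of these data known. Besides the members, the text names up to 12 genes of the wider purinergic list with the largest change among those past the threshold at 155 days, further ones where 5 or fewer of a class passed, and the 3 genes most correlated with each member; 1 of these and 1 marker gene are not reported here. The 5 lower genes of the ectonucleotidase list and all named genes that did not pass (such as P2rx3, Alpl, Ada and Panx1) were named after their values were seen. The dose given to the sequenced mice is not stated for them and no dose is reported.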

Additional observations from a re-analysis of the deposited data

Results flagged for a closer look

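The genotype difference of 5 members differed between the ages by the edgeR test on all 32 mice (adjusted p under 0.05). Many other genes did the same. Of all 19829 genes tested, 21.2% passed in untreated mice, 12.9% toward higher. Under OKN-007 23.0% passed, 2581 genes toward higher. In untreated mice the G93A difference was larger at 155 than at 90 days by 2.43 for P2ry6, 1.74 for Adora3, 1.36 for P2rx7, 1.23 for Entpd1 and 0.99 for P2rx4 on the log2 scale. In OKN-007 mice it was larger by 3.18 for P2ry6, 1.36 for Adora3, 1.25 for Entpd1, 1.06 for P2rx7 and 0.999 for P2rx4.

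In 2 of 64 sets of 4 mice (8 genes in 8 groups), 1 mouse lay apart from the other 3 by Dixon's criterion on log2 CPM, where chance, at about 1 in 20, gives 3.2. P2rx7 in untreated G93A mice at 90 days had a low replicate 10, at 13.4 CPM against 17.3 to 18.1 CPM in the others, with a gap of 0.851 of the range, and the same library had high Schwann cell genes (Prx and Egr2, 45.1 CPM summed). P2rx7 in WT mice given OKN-007 at 155 days had a high replicate 7, at 16.9 CPM against 14.99 to 15.2 CPM, with a gap of 0.887 of the range.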

How the results depend on the processing

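The number of members called stayed within 1.5 times the reported one in all 14 comparisons under DESeq2, RLE factors, both count filters, other sets of mice, other thresholds and the caudal Hox score, a measure an earlier account chose after seeing these data. With a log2 fold change of at least 1 as well, untreated members at 155 days fell from 6 to 4, P2rx4 (0.97) and Nt5e (0.49) being lost, and P2rx4 was lost in both age differences (0.99 and 0.999), which left 4 each. Leaving out each mouse in turn gave 5 to 6 members in untreated G93A against WT at 155 days, 5 to 5 in treated mice, 5 to 6 and 4 to 5 for the age differences (untreated and OKN-007), and 0 in all others. Without both 155-day mice with high liver transcripts, an alternative chosen after seeing the data, 6 and 5 members were called, but treated Nt5e turned to -0.032. With the replicate block, 5, 4 and 0 members were called for the age differences in untreated mice, in OKN-007 mice and for the OKN-007 effect in G93A mice, and the 1 call lost was that of Adora3. Adora3 was not tested with at least 10 counts in every mouse, and its age difference under OKN-007 also missed the threshold with no filter (adjusted p = 0.0807) and without WT OKN-007 90-day replicates 5 (0.0844) and 7 (0.0847), G93A OKN-007 90-day replicate 13 (0.0548) and WT OKN-007 155-day replicate 5 (0.0568). Without single mice at 155 days, untreated Adora2a ranged from -0.25 to 0.27 and treated Nt5e from -0.038 to 0.17. Relative to microglial identity, 14 of 16 tests passed (with those of Nt5e, Adora1 and Adora2a, which follow from the rise of the score), 14 to 15 without single mice, 11 with the homeostatic and 16 with the disease-associated list. There P2ry6 ranged from -0.17 to 0.10 (untreated) and from 0.20 to 0.52 (treated) without single mice, and turned to 1.497 (untreated, homeostatic list) and -1.10 (treated, disease-associated list). Adora3 turned to 0.36 (untreated, homeostatic list), and with that list P2rx7 (untreated), Entpd1 (both) and Adora3 (treated) no longer passed while treated P2ry6 did, at 1.95; it also passed without WT OKN-007 replicate 6. The Nt5e age difference passed without WT untreated replicate 2 of 90 (0.0288) or 155 days (0.0443). The cause was not tested. Of 1641 further member values under alternatives, in comparisons where no member passed or for Adora1 and Adora2a between ages, 160 changed direction, none past 0.26 in size, and 0 passed the threshold. Low counts limit Adora2a and Adora3.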
